A study of Mus musculus with 8 samples.

Results

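The nuclear genes of respiratory complex I (NADH:ubiquinone oxidoreductase) were read from the gene symbols of a count table of whole mouse brain: every symbol that starts with Ndufa, Ndufb, Ndufc, Ndufs, Ndufv or Ndufaf followed by a number was taken, and symbols marked as pseudogenes by an ending -ps were left out. This gave 50 of the 34299 genes in the table. They comprise 36 subunits, 8 assembly factors, and 6 further genes that carry the name without being counted here as subunits: Ndufa4, which is assigned to complex IV, its paralogue Ndufa4l2, and the gene copies Ndufa11b, Ndufb11b, Ndufb4c and Ndufs6b. The series compares whole brains of Cav1 knockout (KO) mice, which lack caveolin 1, the main protein of caveolae, with wild-type (WT) brains by bulk RNA-seq of poly(A)-selected RNA. Each genotype is represented by 3 fetal brains of gestation day 15, and the knockout also by 2 brains of week 70, with 1 library per sample. The labels do not state the strain, the sex, how the Cav1 allele was made, or whether litters were shared, and WT brain at week 70 was not analysed here. The KO day 15 libraries therefore serve in both comparisons, as the group set against WT and as the young group set against week 70.

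Complex I is the entry point for electrons from NADH into the respiratory chain. Its matrix arm carries a flavin and a chain of iron-sulfur clusters that pass electrons from NADH to ubiquinone, and its membrane arm pumps protons. The core of the matrix arm is encoded in the nucleus and the core of the membrane arm in mitochondrial DNA, and a large set of nuclear accessory subunits surrounds both. Assembly factors build modules of the complex in steps, are not part of the finished enzyme, and are known from inherited disease of the brain when they fail. Neurons depend on oxidative phosphorylation, and brain relies on it more after birth than before.

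Depth was 19414747 to 20833397 counts for WT, 14110031 to 15245283 for fetal KO, and 18924304 and 20203233 at week 70, so that depth separated the genotypes without overlap. No batch or date is given in the labels, and a batch that followed the groups cannot be told apart from them. The knocked-out gene had 367, 218 and 329 counts in WT, 0, 3 and 1 in fetal KO, and 1 and 5 in the aged KO, which matches the genotype labels. Processed pseudogenes took 3.55 to 3.69% of counts in WT, 6.15 to 6.49% in fetal KO and 0.306% in each week 70 library. All 6 fetal libraries held at least 54531 counts of Xist and at most 4 counts from 4 Y-linked genes, while week 70 replicate 2 held 4 and 2219. By these genes the week 70 libraries differ in sex, which touches Ndufa1 and Ndufb11 on the X chromosome.

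As a group, the subunits made up a larger share of the library in KO than in WT fetal brain and a larger one again at week 70. Their share of all counts was 0.139 ± 0.00508% for the WT fetal brains, 0.262 ± 0.0132% for the KO fetal brains (SD, n = 3 each) and 0.33 ± 0.0131% at week 70 (n = 2), and no library of one group reached the range of another. The share of the 8 assembly factors was 0.0131 ± 0.000517% for WT, 0.0232 ± 0.000706% for fetal KO and 0.0189% in both week 70 libraries. On this unscaled share the assembly factors were therefore highest in fetal KO brain. TMM scaling is meant to adjust for differences in library composition, and CPM are counts scaled to a common library total. With TMM scaling and per kilobase of transcript, the summed level of the assembly factors ran from 97.6 to 111 CPM per kb in WT. It ran from 165 to 175 in KO day 15 and from 216 to 222 at week 70. The order of the 2 KO groups thus depends on the scaling for the assembly factors. For the subunits the summed level on the same scale was 1721 to 1894 in WT, 3073 to 3440 in KO day 15 and 5593 to 5996 at week 70, the same order as on the unscaled share.

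The ratio of summed subunit level to summed assembly factor level, which does not depend on the library scaling, separated week 70 from the fetal libraries. It was 17.6, 16.6 and 17.5 in WT, 19.7, 19.8 and 17.98 in fetal KO, and 27.0 and 25.9 at week 70. Means were 17.2 ± 0.553, 19.2 ± 1.02 (SD, n = 3 each) and 26.4 ± 0.816 (n = 2). WT and KO day 15 did not overlap per kilobase, but they did when the sums were taken without dividing by length (10.5 to 10.7 in WT against 10.4 to 11.95 in KO), where week 70 stood at 16.97 and 17.9. No p is given for a score over chosen members. Without the genes that have a processed pseudogene, the ratio was 9.45 ± 0.409, 10.1 ± 0.416 and 13.9 ± 0.27 in the same order, with overlap between WT and KO day 15.

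**Figure D1:**
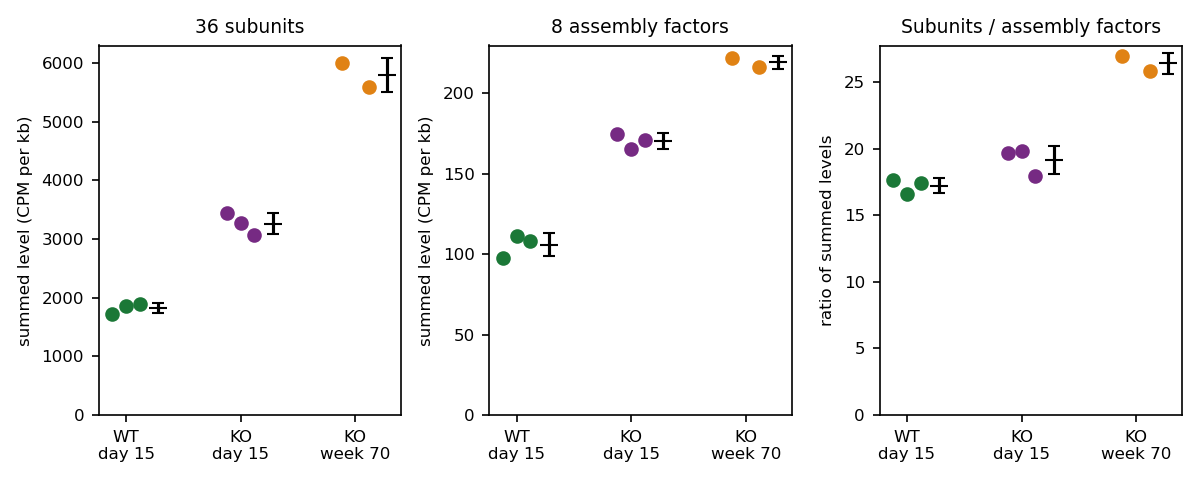
Summed TMM-scaled level (CPM per kb) of the 36 subunits (left) and the 8 assembly factors (middle), and their ratio (right), in each of the 8 libraries (points), with the group mean and SD beside them (black bars). All axes start at 0. Week 70 stands at ratios of 25.9 and 27.0, above the fetal libraries at 16.6 to 19.8.

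Within KO the subunits were more alike in level at week 70 than at day 15. The SD of the log2 level per kilobase between the 36 subunits was 1.03 ± 0.0747 for WT, 1.11 ± 0.0308 for fetal KO and 0.68 ± 0.00883 at week 70 (mean and SD over libraries). Over the 15 subunits to which no pseudogene was assigned the SD was 0.74, 0.94 and 0.68 in the same order. Per kilobase, Ndufc2 was the highest subunit in WT (102 ± 4.85 CPM per kb) and in KO day 15 (239 ± 12.9), and its neighbour Ndufa5 (92.7 ± 10.7 and 231 ± 22.2) lay within 1 SD of it in both groups. At week 70 Ndufa5 was highest, at 371 ± 44.1. The lowest subunit in both fetal groups was Ndufb4, at 2.85 ± 0.855 in WT and 4.84 ± 0.519 in KO. Among assembly factors Ndufaf2 was highest per kilobase in the fetal groups (22.3 ± 2.09 and 51.1 ± 4.01) and Ndufaf8 at week 70 (51.6 ± 6.91). This order rests on the length: in CPM not divided by it, Ndufaf4 exceeded Ndufaf2 in WT (mean 28.1 against 13.1) and fetal KO (51.9 against 32.0). At week 70 Ndufaf3 exceeded Ndufaf8 in such CPM (43.7 against 21.2). Every assembly factor mean lay below the median subunit of its group, which was 47.9 in WT and 159 at week 70, and 85.1 in KO day 15. Lengths are medians over annotated transcripts, so that a gene with both short and long transcripts can move in this order.

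**Figure D2:**
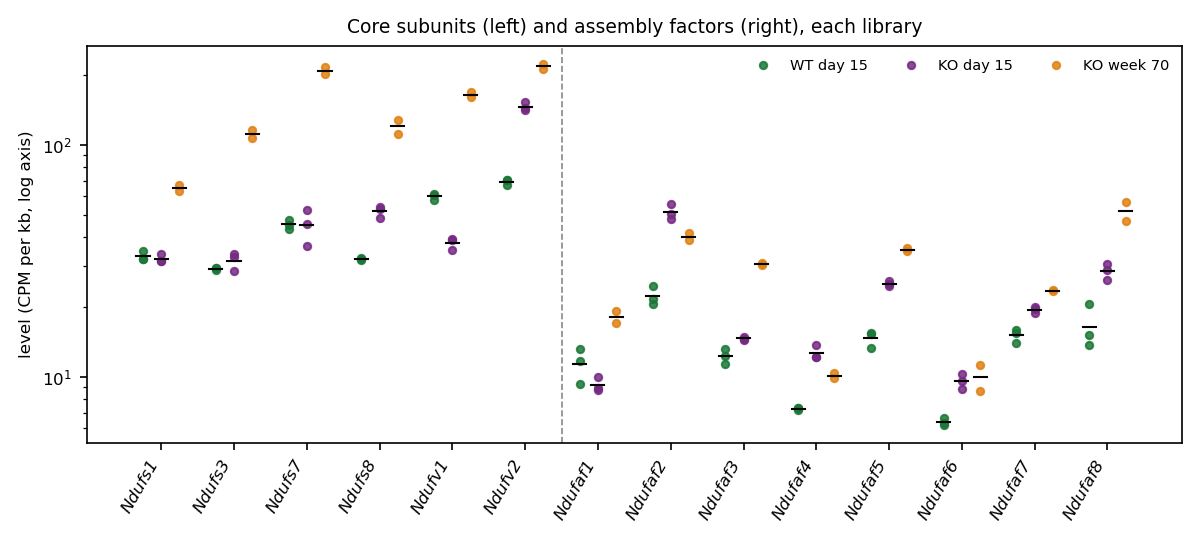
TMM-scaled level (CPM per kb, log axis) of 6 core subunits and the 8 assembly factors in each library (points) with group means (black lines), scaled over all 8 libraries together. The week 70 points lie above both fetal groups for all 6 core subunits shown, and below KO day 15 for Ndufaf2 and Ndufaf4.

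The first comparison asks how loss of Cav1 bears on these genes in the fetal brain. Of the 36 subunits, 30 rose in KO, 1 fell and 5 did not pass the test, with a median log2 change (the fold change of KO over WT on the log2 scale) of 0.96. Of the 8 assembly factors, 7 rose and 1 did not pass, with a median of 0.77. Over all 19147 genes tested, edgeR's quasi-likelihood test with Benjamini-Hochberg adjustment at 0.05 called 62.6%, with 30.1% higher and 32.5% lower, and the median was 0.03. Of all calls 48.1% were higher in KO, and 60.8% with upper-quartile scaling, which moved the median of all genes to 0.20 and that of the subunits to 1.13. CPM did not overlap and was higher in KO for 39 of the 47 tested members and lower for 1, against 34% and 34.5% of all genes tested. The calls measure the spread between these libraries, which the labels describe as biological replicates at day 15. In bulk brain, fewer cells that express a gene and less RNA per cell cannot be told apart. Values beside these tests are CPM scaled by TMM over the 6 fetal libraries, in the order of replicates 1 to 3.

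The nuclear core of the matrix arm did not move as 1 block. Of the 6 core genes reported here 3 rose, 1 fell and 2 did not pass, and their median log2 change was 0.14. Ndufv1, which binds the flavin and holds the site where NADH is oxidised, was at 86.9, 93.8 and 93.4 CPM in WT and 62.99, 62.8 and 57.8 in KO. All KO libraries lay below all WT libraries, and the log2 change was -0.58 (SE 0.062, adjusted p 1.46e-05) in edgeR. Ndufv2, the iron-sulfur subunit that pairs with Ndufv1 in the same tip of the arm, went the other way, from 65.2, 69.9 and 69.1 in WT to 158, 147 and 153 in KO. Its groups stood far apart, with a log2 change of 1.17 (SE 0.057, adjusted p 6.52e-08) in edgeR. Ndufs8, which carries clusters near the quinone end, was at 32.8, 33.5 and 33.6 in WT and 59.2, 53.01 and 58.9 in KO, a log2 change of 0.78 (SE 0.069, adjusted p 3.65e-06) in edgeR.

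The other core subunits showed small differences. Ndufs3, a scaffold of the quinone-binding module, had 32.4, 32.99 and 31.9 CPM in WT and 39.4, 38.4 and 34.2 in KO. Its groups did not overlap and edgeR gave 0.20 (SE 0.077, adjusted p 0.0402), but the call was lost without any 1 of 5 libraries (all but KO replicate 3) and in DESeq2. Ndufs1, the largest subunit and the holder of several clusters, had 87.8, 96.1 and 88.5 in WT and 97.7, 91.3 and 93.2 in KO. These ranges overlap, as do those of Ndufs7 (34.5, 38.6 and 36.3 against 44.6, 38.9 and 31.7), which holds the last cluster of the chain. Their edgeR log2 changes were 0.05 (SE 0.059, adjusted p 0.472) for Ndufs1 and 0.07 (SE 0.11, adjusted p 0.583) for Ndufs7.

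Accessory subunits of the matrix arm rose more uniformly: 8 of 9 rose, 1 did not pass, and the median log2 change was 1.17. The members ranged from 0.12 (Ndufa9, adjusted p 0.17 in edgeR) to 1.42 (Ndufs4). Ndufs4, a subunit whose loss in mice gives a model of Leigh syndrome, was at 37.2, 47.8 and 44.5 CPM in WT and 115, 112 and 119 in KO. Every KO library held more than each WT library, with an edgeR log2 change of 1.42 (SE 0.085, adjusted p 2.24e-07). Ndufa5, an accessory subunit of the quinone-binding module, went from 26.6, 32.9 and 33.4 to 90.4, 78.2 and 77.5, with 1.41 (SE 0.097, adjusted p 6.22e-07) in edgeR. Ndufa12, the paralogue that takes the place of the assembly factor Ndufaf2 in the finished enzyme, was counted at a low level, 6.71, 8.25 and 4.8 CPM in WT and 14.1, 17.4 and 13.1 in KO. The groups of Ndufa12 did not overlap, and edgeR gave 1.17 (SE 0.19, adjusted p 3.47e-04), with the reservation on pseudogenes given further on.

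Accessory subunits of the membrane arm were higher in KO in 19 of 20 cases, and 1 did not pass. Their median log2 change was 0.96, between 0.02 for Ndufa10 and 1.81 for Ndufb1. Ndufb1, a small single-span subunit of the distal membrane arm, had the highest fold change of all members: it was at 9.51, 11.03 and 12.7 CPM in WT and 40.4, 42.8 and 33.1 in KO, with 1.81 (SE 0.13, adjusted p 8.29e-07) in edgeR. Its lowest KO library exceeded its highest WT library by more than the whole WT range. GENCODE M21 lists this identifier under the name Ndufb1-ps as a long non-coding RNA, so that the length used for it is not that of a coding transcript. Exons of Ndufb1 overlap Cpsf2 on the opposite strand over 147 bases, and reads of the pair cannot be told apart if strand was not used. Ndufa1, a small membrane subunit encoded on the X chromosome, was at 14.8, 19.6 and 20.6 in WT and 57.9, 51.6 and 39.4 in KO, with 1.44 (SE 0.15, adjusted p 1.51e-05) in edgeR. Ndufa10, a kinase-like subunit on the matrix face of the membrane arm, did not pass, at 72.9, 75.9 and 78.7 against 78.6, 76.8 and 75.2, where edgeR gave 0.02 (SE 0.056, adjusted p 0.772).

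Among the assembly factors the rise had the same direction in 7 of 8 genes. Ndufaf2, which joins the late intermediate at the place later taken by Ndufa12, was at 12.01, 12.9 and 14.5 CPM in WT and 34.5, 31.2 and 30.3 in KO, the largest change of the group, with 1.29 (SE 0.10, adjusted p 1.66e-06) in edgeR. The largest overlap of 1 annotated Ndufaf2 exon with an exon of the opposite-strand gene B230220B15Rik spans 1955 bases. This is more than the 556 bases used as the transcript length of Ndufaf2. Ndufaf3 and Ndufaf4 act as partners in the early assembly of the quinone-binding module. Ndufaf4 went from 28.02, 27.97 and 28.3 to 49.3, 49.5 and 56.9 CPM, with 0.89 (SE 0.077, adjusted p 3.13e-06) in edgeR, while Ndufaf3 went from 17.7, 20.9 and 19.4 to 23.97, 24.4 and 25.2, with 0.34 (SE 0.092, adjusted p 0.00799). Both pairs of groups were separate, although that of Ndufaf3 narrowly.

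Ndufaf5, which modifies an arginine of Ndufs7, and its partner Ndufaf8 rose by like amounts. Ndufaf5 was at 16.3, 19.2 and 18.98 CPM in WT and 32.7, 32.2 and 34.4 in KO, with 0.87 (SE 0.092, adjusted p 1.43e-05) in edgeR. Ndufaf8 was at 6.15, 9.39 and 6.82 and 14.6, 12.5 and 14.1, with 0.88 (SE 0.17, adjusted p 9.17e-04) in edgeR. Ndufaf7, a methyltransferase, had 29.1, 28.9 and 25.9 CPM in WT and 36.7, 39.1 and 39.2 in KO, with a log2 change of 0.45 (SE 0.078, adjusted p 4.91e-04) in edgeR. Ndufaf6, needed early for the membrane arm, had 7.06, 7.32 and 7.64 and 11.6, 10.7 and 12.7, with 0.67 (SE 0.13, adjusted p 9.08e-04). None of these 4 genes overlapped between the genotypes. Ndufaf1, a member of the complex that assembles the membrane arm, was the exception: it had 14.2, 18.2 and 20.2 CPM in WT and 14.2, 14.5 and 16.5 in KO. Its groups overlapped and edgeR gave -0.22 (SE 0.14, adjusted p 0.19), while without WT replicate 1 the value was -0.36 (adjusted p 0.0184).

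Of the 6 further genes 3 were tested at day 15 and 2 rose. Ndufa4 was at 69.7, 80.3 and 78.3 CPM in WT and 223, 210.05 and 215 in KO, the second highest fold change of all members (1.504 (SE 0.067, adjusted p 3.96e-08) in edgeR). Ndufa4l2, a paralogue known to be induced by hypoxia, was low in all libraries, at 5.1, 2.46 and 2.62 in WT and 2.61, 3.16 and 2.86 in KO. Its groups overlapped, with -0.24 (SE 0.29, adjusted p 0.489) in edgeR, and the sign turned to 0.17 without WT replicate 1. Ndufb4c, a gene copy of Ndufb4, rose with 1.39 (SE 0.17, adjusted p 4.18e-05). Not tested were Ndufb11b, with 0 counts in all 8 libraries (up to 3 counts, or 0.213 CPM in the shallowest library, remain possible by counting error alone), Ndufa11b, with 1 to 5 counts, and Ndufs6b, with 3 to 15 fetal counts.

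**Figure D3:**
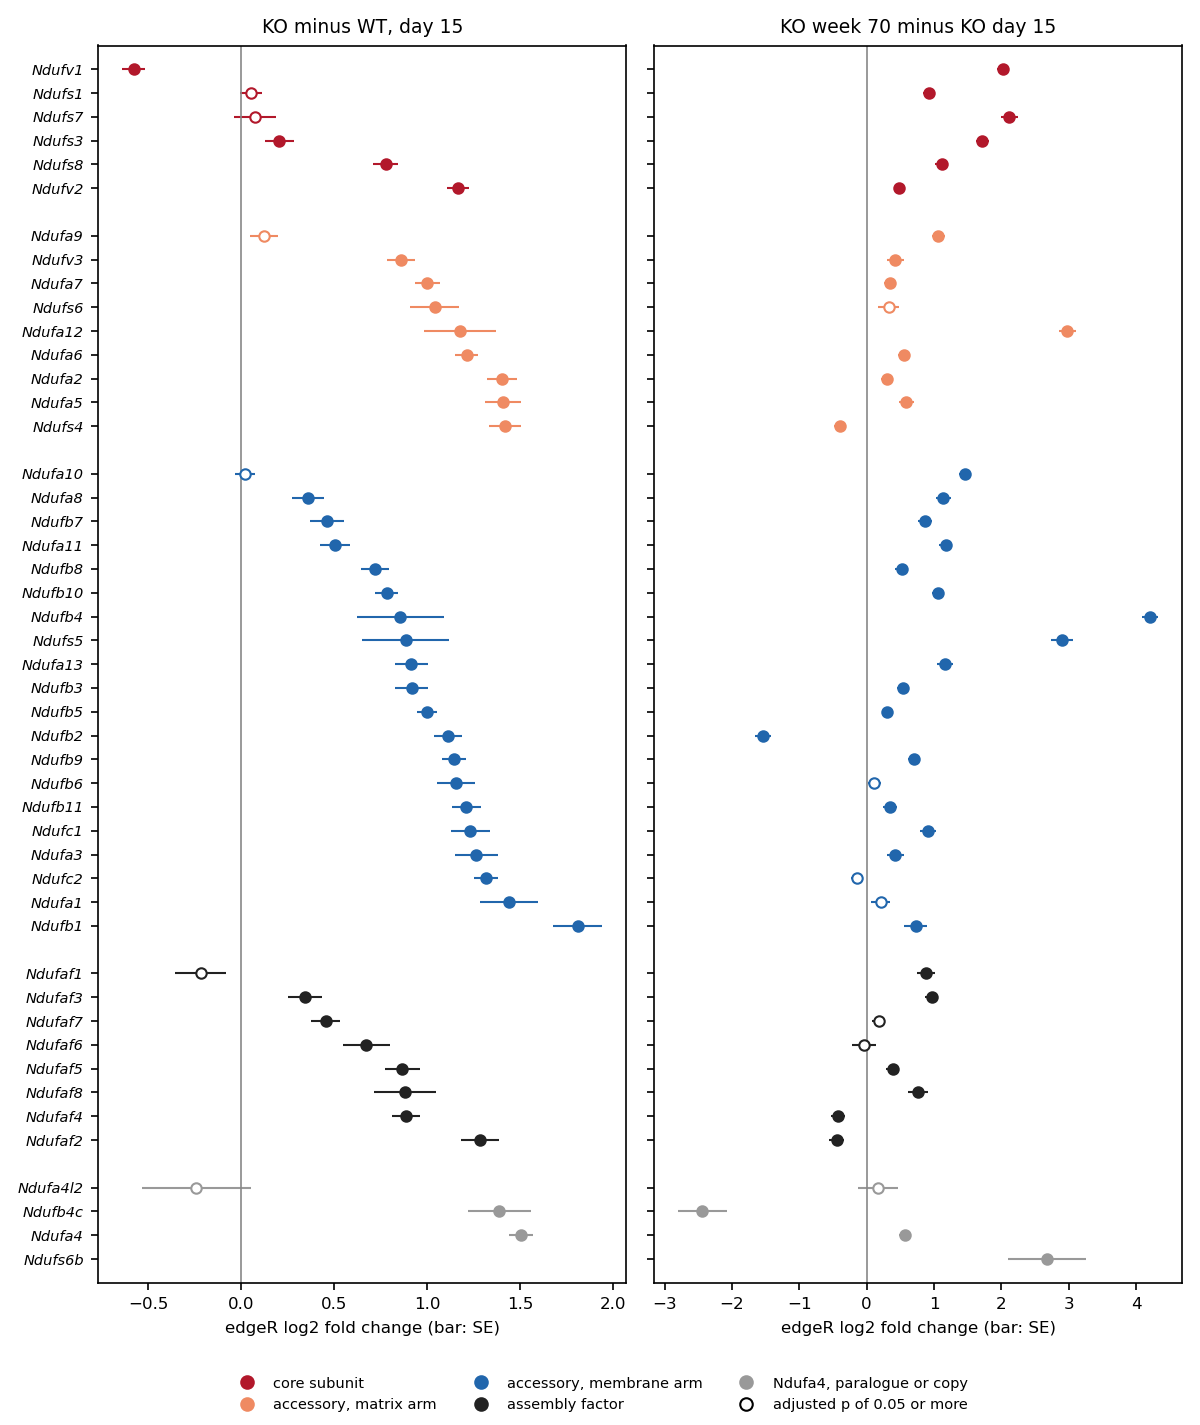
The edgeR log2 change of each tested member reported here (points, bars are the SE) for KO minus WT at day 15 (left) and KO week 70 minus KO day 15 (right), grouped by role and ordered by the day 15 value. Open points did not pass the adjusted p of 0.05. At day 15 only Ndufv1 fell among the subunits, while by age the 6 core subunits shown rose and Ndufs4, Ndufb2, Ndufaf2, Ndufaf4 and Ndufb4c fell. The 2 panels share the KO day 15 libraries and have different scales.

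Age could be compared within the knockout. At week 70, 30 of 36 subunits were higher than in fetal KO brain, 2 were lower and 4 did not pass, with a median log2 change of 0.72. Of the assembly factors 4 rose, 2 fell and 2 did not pass, with a median of 0.28. Among all 20000 genes tested, edgeR called 82%, of which 37.6% of the genes tested were higher and 44.4% lower, and the median was -0.19. CPM did not overlap and was higher at week 70 for 37 of 48 tested members and lower for 5, against 40.2% and 47.8% of all genes. Upper-quartile scaling shifted the median of all genes to -0.44 and with it the medians of subunits to 0.47 and of assembly factors to 0.03, so that the members are best read against the median of all genes. With 2 libraries at week 70, and with KO alone, age cannot be told apart from any difference in how the libraries were made. The KO day 15 libraries enter both comparisons, so a shift in them alone moves the 2 log2 changes of a gene in opposite directions. Values below are CPM scaled over the 5 KO libraries.

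The 6 nuclear core subunits reported here rose by age, and their median of 1.42 was above that of the other classes. Ndufs7 was at 40.7, 35.4 and 28.9 CPM in fetal KO brain and 158 and 146 at week 70, where edgeR gave 2.12 (SE 0.13, adjusted p 7.30e-08). Ndufv1, the 1 subunit that fell at day 15, was at 57.5, 57.3 and 52.6 and 223 and 232, with 2.03 (SE 0.085, adjusted p 5.01e-09) in edgeR. Both week 70 libraries lay far above the fetal libraries for these genes. The remaining 4 had log2 changes of 1.72 (Ndufs3), 1.11 (Ndufs8), 0.92 (Ndufs1) and 0.48 (Ndufv2), with edgeR adjusted p of 0.000312 or less. Ndufv2, which had the highest core rise at day 15, was at 144, 134 and 139 in fetal KO brain and 201 and 188 at week 70. In the matrix arm accessory class 7 of 9 rose, 1 fell and 1 did not pass, with a median of 0.43.

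The fall in that class was Ndufs4, at 105, 102 and 108 CPM at day 15 and 85.1 and 74.95 at week 70, where edgeR gave -0.39 (SE 0.090, adjusted p 0.00223). The groups did not overlap, but the value depends on the adjustment for transcript length and GC content described further on (0.52 or -0.02). Among membrane arm accessory subunits 16 of 20 rose, 1 fell and 3 did not pass, with a median of 0.72. Ndufb2, a small subunit of the distal membrane arm, fell from 69.1, 65.2 and 73.6 to 20.9 and 26.8 CPM, with -1.54 (SE 0.12, adjusted p 7.04e-07) in edgeR. Its exons overlap Braf over 146 bases and the antisense gene Gm16272 over 156 bases on the opposite strand, and the protein-coding model Gm42420 over 145 bases on the same strand. The call of Ndufb2 was lost with an offset for length and GC smoothed over all genes (-0.22). Ndufb1 rose by 0.73, but by 0.41 without week 70 replicate 1. Without that library the rises of Ndufa2, Ndufv3 and the X-linked Ndufb11, named here for this reason, no longer passed (edgeR adjusted p 0.0637, 0.131 and 0.0626), nor did that of Ndufv3 without KO day 15 replicate 3 (0.0611).

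Of the assembly factors, Ndufaf3 and Ndufaf1 rose most with age. Ndufaf3 was at 21.9, 22.2 and 22.97 CPM at day 15 and 44.5 and 42.9 at week 70, with 0.97 (SE 0.096, adjusted p 4.56e-06) in edgeR. Ndufaf1, which did not pass between the genotypes, was at 12.96, 13.2 and 15.04 and 26.8 and 23.6, with 0.88 (SE 0.13, adjusted p 1.17e-04) in edgeR. Ndufaf8 was at 13.3, 11.4 and 12.8 and 23.3 and 19.03 (0.76 (SE 0.15, adjusted p 6.88e-04)), and Ndufaf5 at 29.9, 29.3 and 31.3 and 39.1 and 39.9 (0.39 (SE 0.094, adjusted p 0.00306)), both with no overlap of ages in CPM. Ndufaf2 fell from 31.5, 28.5 and 27.6 to 20.8 and 22.04 CPM, with -0.45 (SE 0.11, adjusted p 0.00399) in edgeR, and Ndufaf4 from 45.1, 45.2 and 51.9 to 34.8 and 35.8, with -0.43 (SE 0.10, adjusted p 0.00271). Both genes had risen at day 15. On the scale over all 8 libraries fetal KO brain, the group shared by both comparisons, stood above both other groups for them. Neither fall held in sign with an offset for length and GC smoothed over all genes (1.15 and 0.62). With one smoothed over protein-coding genes alone Ndufaf4 changed sign as well, while Ndufaf2 stayed lower. Ndufaf6 (10.6, 9.78 and 11.6 against 9.11 and 11.6) overlapped between the ages, with -0.04 (SE 0.18, adjusted p 0.836) in edgeR. Ndufaf7 (33.5, 35.7 and 35.7 against 39.9 and 39.1) did not overlap but missed the threshold, with 0.18 (SE 0.093, adjusted p 0.1).

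For Ndufaf2 and its paralogue Ndufa12 the log2 changes were 1.29 and 1.17 between the genotypes, and -0.45 and 2.98 by age. With an offset for length and GC smoothed over all genes Ndufaf2 was at 1.15 by age, while one smoothed over protein-coding genes alone left its sign negative. The value of Ndufa12 by age was 0.85 once the counts of its pseudogene, described next, were added. Ndufa4 rose by 0.57, from 203, 192 and 196 to 304 and 279.6 CPM. Ndufa4l2 did not pass (0.17 (SE 0.30, adjusted p 0.6) in edgeR).

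The 3 largest rises by age, of Ndufb4, Ndufa12 and Ndufs5, belong to genes with a near-identical processed pseudogene that also drew counts. Processed pseudogenes are copies of spliced messenger RNA inserted in the genome, and reads that match both copies are assigned by rules of the aligner and the counter that are not given in the sources used here. In GENCODE M21, 21 of the 36 subunits and 2 of the 8 assembly factors have at least 1 such copy with 50% or more of its length aligned at 85% identity or more. Copies were aligned to coding transcripts only, so that Ndufb1, listed there as non-coding, could not be assigned one. Ndufb4 had 43, 72 and 50 counts in WT, 69, 89 and 89 in fetal KO and 1492 and 1315 with age, while its copy Ndufb4c had 58, 69 and 75, 132, 155 and 149, and 13 and 36. The copy thus held 55.4% of the summed counts in WT, 63.9% in KO day 15 and 1.76% at week 70 (group means). For Ndufs5 the counts were 140, 230 and 225 in WT, 315, 378 and 217 in fetal KO, and 2245 and 1934 with age. Its copy Ndufs5-ps had 422, 357 and 369, then 660, 672 and 735, then 8 and 8, a share of 66%, 69.6% and 0.383%. Ndufa12 showed the same pattern, with 83.8%, 80.2% and 13.7% of the summed counts on Ndufa12-ps. For Ndufs3 the share on its copy Gm12251 was 35.7%, 35.3% and 4.75%.

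The coding sequences show how little separates these copies, on GRCm38 with GENCODE M21 transcripts. Positions are counted from 1 at the A of the start codon of the parent, and the capitals mark the bases that differ. Ndufs5 (chr4:123712710-123718202, minus strand) and Ndufs5-ps (chr16:42955631-42955949, plus strand) differ over 319 aligned bases by T81C and A105G, with the base of Ndufs5 first. Bases 1 to 150 are shown.
Ndufs5: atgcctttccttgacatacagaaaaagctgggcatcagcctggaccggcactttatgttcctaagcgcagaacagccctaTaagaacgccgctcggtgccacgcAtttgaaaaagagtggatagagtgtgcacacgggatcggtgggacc
Ndufs5-ps: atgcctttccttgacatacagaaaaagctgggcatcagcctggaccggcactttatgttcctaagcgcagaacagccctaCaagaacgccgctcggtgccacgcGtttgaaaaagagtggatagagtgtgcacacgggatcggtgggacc
Ndufa12 (chr10:94198720-94221443, plus strand) and Ndufa12-ps (chr5:130188395-130188796, plus strand) differ over 402 aligned bases by A147G and T426C, and bases 141 to 440 are shown.
Ndufa12: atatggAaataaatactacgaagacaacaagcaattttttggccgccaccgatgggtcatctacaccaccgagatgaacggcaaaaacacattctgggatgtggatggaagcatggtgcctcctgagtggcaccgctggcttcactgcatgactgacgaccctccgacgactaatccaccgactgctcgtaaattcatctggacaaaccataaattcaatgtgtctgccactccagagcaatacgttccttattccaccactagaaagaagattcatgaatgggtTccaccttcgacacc
Ndufa12-ps: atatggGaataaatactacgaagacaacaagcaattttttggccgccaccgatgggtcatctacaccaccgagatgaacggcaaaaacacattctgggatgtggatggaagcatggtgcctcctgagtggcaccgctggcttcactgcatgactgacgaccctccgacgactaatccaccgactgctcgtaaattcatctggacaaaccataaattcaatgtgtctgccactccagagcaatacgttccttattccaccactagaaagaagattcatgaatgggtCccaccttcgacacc
Ndufb4 (chr16:37647170-37654453, minus strand) and Ndufb4c (chr15:73809507-73809896, minus strand) have the same coding sequence over all 390 bases, of which bases 1 to 150 are shown once.
Ndufb4 and Ndufb4c: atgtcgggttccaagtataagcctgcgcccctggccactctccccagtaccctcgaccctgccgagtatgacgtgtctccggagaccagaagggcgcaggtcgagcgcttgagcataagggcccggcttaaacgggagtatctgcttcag

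When the counts of each copy were added to its parent, the large values by age shrank and the direction stayed. The edgeR log2 change between week 70 and day 15 was 2.77 in place of 4.21 for Ndufb4, 1.20 in place of 2.90 for Ndufs5, 0.85 in place of 2.98 for Ndufa12, and 1.16 in place of 1.72 for Ndufs3. At day 15 the same 4 values were 1.17, 1.05, 0.87 and 0.20 in edgeR, against 0.86, 0.88, 1.17 and 0.20. The counts of calls changed by at most 1: with the copies added 30 subunits rose and 1 fell at day 15, and 31 rose and 2 fell by age. Over the 15 subunits with no such copy assigned, Ndufb1 among them, 11 rose and 1 fell at day 15 with a median of 0.86. By age 13 rose and 0 fell, with a median of 0.73 that is the value of Ndufb1 itself (edgeR calls). Ndufs6b, itself a copy of Ndufs6, rose from 5, 15 and 8 counts to 88 and 24, with 2.68 (SE 0.58, adjusted p 0.00142) in edgeR, and 1.52 without week 70 replicate 1. The other tested copy, Ndufb4c, fell with -2.44 (SE 0.36, adjusted p 9.94e-05).

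**Figure D4:**
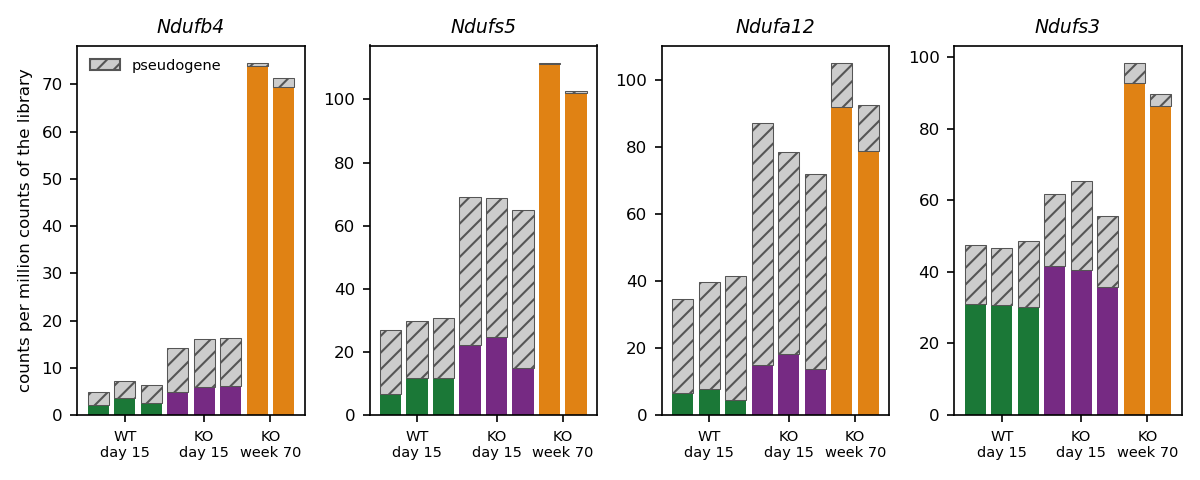
Unscaled CPM (share of the library's total count) for 4 subunits (solid, coloured by group) with their processed pseudogene stacked on top (hatched), 1 bar per library in the order WT day 15, KO day 15 and KO week 70. The pseudogene takes 66% (WT) and 69.6% (KO) of the summed counts of Ndufs5 in the fetal groups and 0.383% at week 70.

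Fold changes at day 15 went with transcript length, among members and among genes at large. Subunits have short transcripts, with a median of 692 bases (315 to 2590), while the assembly factors have a median of 1308.5 (427 to 3632). Median GC content was 53.41% for the subunits (43.05 to 60.69) and 47.42% for the assembly factors (39.48 to 63.23). Among protein-coding genes tested, those of at most 750 bases had a median of 0.58 on the log2 scale and 60.2% were higher in KO (867 genes), while those above 3000 bases had -0.41 and 15.7% (5814 genes). Over the 47 tested members Spearman's rho between length and log2 change was -0.64 at day 15, as a description across genes that share libraries. Of the 3 reported core subunits that did not rise, Ndufs1 (2590 bases) and Ndufv1 (1438) are among the longer members, while Ndufs7 (758) is not. The class of 750 to 1500 bases had a median of 0.22 over all coding genes, and that of 1500 to 3000 bases had -0.10. By age rho over 48 members was 0.18 with length and 0.40 with GC content. Subunits, with a higher median GC content than assembly factors, also had the higher median log2 change by age. GC content also went with the change at day 15: coding genes below 45% GC had a median of 0.40 and those above 55% one of -0.48, and rho over the members was -0.293. By age the order was the reverse, with medians of -0.48 and 0.72 in the same classes. The part of RNA quality in these differences was not tested.

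With an offset per library smoothed on length and GC over all genes, 28 subunits rose and 1 fell at day 15, with a median of 0.68, and 7 assembly factors rose and 1 fell, with a median of 0.43. The assembly factor that fell in this fit was Ndufaf1, at -0.62 (edgeR adjusted p 0.00265), and Ndufv1 stayed lower at -0.38 (adjusted p 0.00036). An offset smoothed over protein-coding genes alone, added after the data were seen, gave 26 subunits higher and 1 lower with a median of 0.60. Over all genes tested at day 15, 49.9% were called with the first offset and 50.5% with the second. Of these calls 50.5% and 54.3% were higher in KO, and the medians of all genes were 0.03 and 0.05. The offsets did not remove the relation with length among members: rho at day 15 was -0.514 with the first and -0.465 with the second. By age the first gave a rho of -0.472 in place of 0.18, and the second gave 0.0921. The medians by age also differed between the 2 offsets. Smoothed over all genes, the medians were 1.43 for subunits and 0.86 for assembly factors, with 35 subunits and 8 assembly factors higher. Smoothed over protein-coding genes they were 0.54 and 0.14, with 25 subunits higher and 1 lower, and 3 assembly factors higher and 1 lower. The median of all genes tested by age moved too, to -0.00719 with the first offset and -0.395 with the second. The first called 79.4% of all genes, with 51.2% of the calls higher, and the second 81.1%, with 39.7% higher. Under both, as without an offset, the subunit median stood above the assembly factor median in each comparison.

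**Figure D5:**
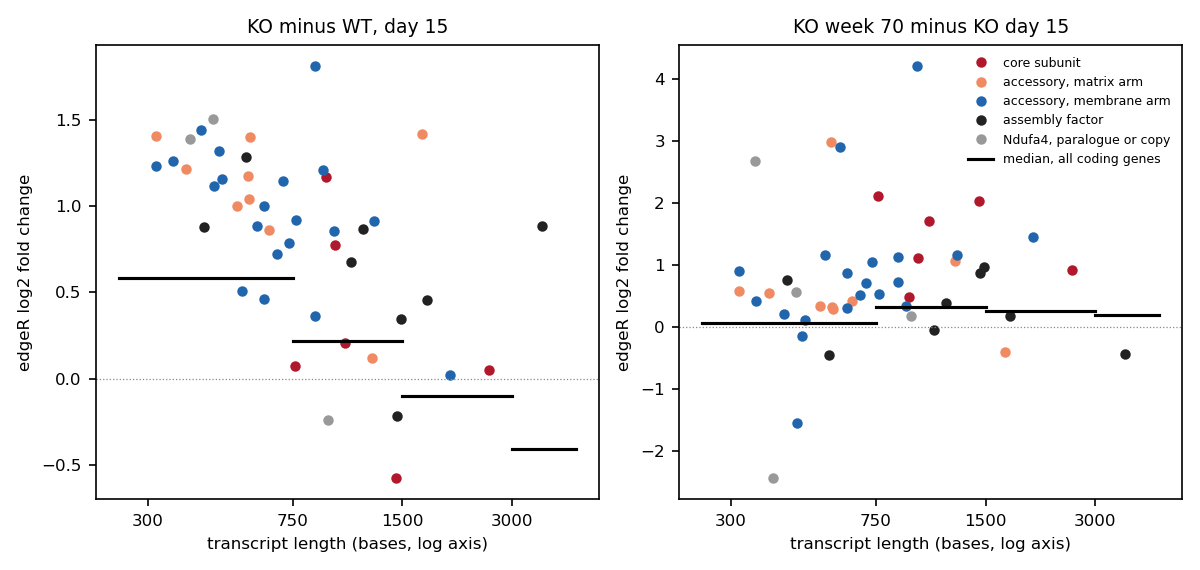
The edgeR log2 change of each tested member reported here against its transcript length (bases, log axis), coloured by role, for KO minus WT at day 15 (left) and week 70 minus day 15 within KO (right). Black lines are medians of all tested protein-coding genes in 4 length classes (edges at 750, 1500 and 3000 bases): on the left they step down from 0.58 to -0.41, and on the right they lie between 0.07 and 0.32.

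Promoter sequence was examined because NRF1, GABPA (NRF2) and YY1 are known regulators of nuclear respiratory genes. RefSeq promoters on GRCm38.p6, from 250 bases before to 50 bases after the start, were at hand for 40 members, of which 32 are subunits and 7 are assembly factors. The NRF1 motif was GCGCA and GCGC with any 1 base between them, searched on both strands like the other motifs. It was found in 7 of 32 subunits (21.9%) and 2 of 7 assembly factors (28.6%), against 5.19% of 27025 genes with a promoter. The YY1 motif AAGATGGCG was found in 5 of 32 (15.6%) and 1 of 7 (14.3%), against 1.64% of all. The GABPA motif CCGGAAG was found in 4 of 32 (12.5%) and 2 of 7 (28.6%), against 9.93%. No match to 1 motif overlapped a match to another in the members. A match is a description of the letters and shows neither binding nor a cause.

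All 6 matches to YY1 lay on the sense strand and 11 to 36 bases after the start. The motif includes the letters ATG, and whether these are the start codon of each gene was not examined. The matches are shown, motif in capitals, because they share this place.
Ndufs7 at chr10:80249463-80249492, plus strand: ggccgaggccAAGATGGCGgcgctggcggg
Ndufa9 at chr6:126849096-126849125, minus strand: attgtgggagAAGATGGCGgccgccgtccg
Ndufs4 at chr13:114388045-114388074, minus strand: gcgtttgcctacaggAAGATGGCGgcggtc
Ndufs6 at chr13:73328433-73328462, minus strand: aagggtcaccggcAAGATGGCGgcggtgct
Ndufc1 at chr3:51408914-51408943, minus strand: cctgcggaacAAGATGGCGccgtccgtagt
Ndufaf8 at chr11:120098934-120098963, plus strand: ggcagggcccAAGATGGCGgcgccctcgag
Whether matches go with the changes of the members was not tested. Ndufb4 holds 3 matches to the NRF1 motif, the most of the members with a promoter at hand. They lie 191, 79 and 22 bases before the start and are shown in that order.
Ndufb4 at chr16:37654540-37654569, minus strand: gagaagcagtGCGCACGCGCagaatacgcg
Ndufb4 at chr16:37654428-37654457, minus strand: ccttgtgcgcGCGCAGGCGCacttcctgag
Ndufb4 at chr16:37654371-37654400, minus strand: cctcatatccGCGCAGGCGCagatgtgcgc

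The transcripts of the regulators themselves moved in both directions. Of 8 regulator genes at day 15, Tfam, which maintains mitochondrial DNA, rose (0.54), while Yy1 (-0.92), Pprc1 (-0.80) and Nrf1 (-0.30) fell and the other 4 did not pass in edgeR. By age Ppargc1b (1.85), Ppargc1a (1.55), Esrra (1.44) and Yy1 (0.56) rose, while Gabpa (-1.28), Nrf1 (-1.06), Pprc1 (-0.72) and Tfam (-0.33) fell. The mitochondrially encoded subunits, which form the core of the membrane arm, all 7 rose at day 15 with a median log2 change of 1.00. By age 5 of 7 rose and mt-Nd4l fell (-1.72), with a median of 1.04. Complex I genes outside the naming rule, mainly further assembly factors and the acyl carrier protein Ndufab1, were tested in 12 of 12 cases in both comparisons. At day 15, 5 of them rose and 0 fell in edgeR, with a median of 0.13, against 30.1% and 32.5% of all genes tested. By age 4 rose and 3 fell, with a median of 0.01, against 37.6% and 44.4% of all genes, and Ndufab1 had the highest value at 1.497.

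Markers of the cells that whole brain holds also differed between the groups. The counts of markers below stand against all genes tested, of which 30.1% were higher and 32.5% lower in KO at day 15. By age 37.6% of all genes tested were higher and 44.4% lower. Between the genotypes all 5 neural progenitor markers fell (summed CPM of 976 to 1085 in WT against 349 to 380 in KO), as did all 5 endothelial markers (163 to 228 against 44.5 to 57.3). Of 5 erythroid markers 4 rose (726 to 819 against 2465 to 3031). Of 6 neuron markers 2 rose and 4 fell, with sums of 3737 to 4180 in WT and 2878 to 2945 in KO. Of 5 astrocyte markers 3 fell and 1 rose (357 to 449.6 against 184 to 189). Of 5 fibroblast and meninges markers 3 fell, with a median log2 change of -3.86 and sums of 285 to 4466 in WT and 51.6 to 121 in KO. Without the highest library of that list, WT replicate 1, the subunit median was 0.88 and the assembly factor median 0.69. By age all 5 oligodendrocyte markers rose (67.0 to 70.7 against 12413 to 12727), as did all 5 astrocyte, all 5 microglia and all 5 endothelial markers. Of 6 neuron markers 4 rose and 2 fell by age, and all 5 erythroid markers fell. No marker of these lists was at 0 throughout a group, apart from the muscle gene Actc1 at week 70. The part of cell composition in the changes of complex I genes was not tested.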

How the data were processed

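The values are whole-number counts of reads for each gene and library, which the authors deposited in 1 table, per the file headers. FastQC, cutadapt, Trimmomatic, HISAT2, featureCounts, edgeR and the builds GRCm38 and GRCm39 are named in the submitters' processing notes, with no versions or roles. Whether strand was used and how multi-mapping reads were treated is not given in the sources used here. The members, gene lists and tests were chosen with earlier results of these data known.

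Genes were kept by filterByExpr, scaled by TMM and tested with edgeR 4.0.16 in R 4.3.3 (two-sided quasi-likelihood test, Benjamini-Hochberg adjustment over all genes tested, threshold 0.05), with the 6 fetal libraries for genotype and the 5 KO libraries for age. The SE is the one implied by the F statistic. Levels per kb and the ratios used TMM over all 8 libraries. Transcript length (median over coding transcripts, or over the others where none is coding), GC content and pseudogenes came from GENCODE M21 on GRCm38, which matched 33365 identifiers (97.3%). Pseudogenes were assigned with minimap2 2.31. Overlaps with other genes are given as the largest between 1 exon of each gene. Length and GC offsets were smoothed with mgcv 1.9.3. DESeq2 1.42.0 was an alternative, beside other scalings, filters, a replicate block, pseudogene counts added to parents, and each library left out in turn.

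Named were all assembly factors, the core subunits (1 of them is not reported here), Ndufa12, Ndufa4, Ndufa4l2 and the 5 highest and 5 lowest log2 fold changes per comparison; other members were named after their values were seen. On simulated counts in which 200 genes changed by a log2 value of 1, the script recovered 95% of them at day 15 (19182 genes tested, 4.52% of 199 calls false) and 93% by age (19200 genes, 4.62% of 195). These counts had a fixed dispersion and equal numbers of genes raised and lowered. In the real data 62.6% and 82% of genes were called, so these rates describe the simulated setting only. At day 15 no positive pairing by replicate number was seen: same-numbered libraries had correlations of deviations of -0.16, -0.19 and -0.175. By age the values were 0.0331 and 0.00962. These cannot decide, since the deviations of the 2 week 70 libraries from their mean mirror each other. Intervals and floors cover counting error only.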

Additional observations from a re-analysis of the deposited data

How the results depend on the processing

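No total of called subunits or assembly factors moved by more than 1.5 times in any alternative, and no median or ratio changed sign, but counts by direction did move. By age, assembly factors were 4 higher and 2 lower, but 8 and 0 with the offset, 7 and 0 with the offset and the block, and 3 and 1 with the offset from protein-coding genes, while the 2 lower subunits became 0, 0 and 1. At day 15 lower subunits went from 1 to 2 without a filter, in DESeq2 and without KO replicate 1, and lower assembly factors from 0 to 1 with each offset and without WT replicate 1. Of the values that answer a comparison, 129 stayed the same (totals within 1.5 times, medians and ratios within the spread between libraries) and 32 medians or ratios moved by more than that spread. At day 15 the subunit and assembly factor medians (0.96 and 0.77) were 1.13 and 0.94 with upper-quartile scaling, 0.87 and 0.68 without a filter, 0.68 and 0.43 with the length and GC offset, 0.69 and 0.43 with the offset and the replicate block, and 0.60 and 0.44 with the offset from protein-coding genes. Without parents of pseudogenes the subunit median was 0.86, and with the offset as well the medians were 0.64 and 0.42. By age (0.72 and 0.28) they were 0.47 and 0.0327 with upper-quartile scaling, 0.82 and 0.38 with all 8 libraries in one fit, 1.43 and 0.86 with the offset, 1.39 and 0.88 with the offset and the block, 0.54 and 0.14 with the offset from protein-coding genes, and 1.43 and 1.12 with the offset and no parents of pseudogenes. The assembly factor median by age was 0.25 with RLE scaling, 0.25 with a filter at a mean of 10 counts and 0.24 in DESeq2. The median of all genes by age was -0.00719 with the offset and -0.395 with the offset from protein-coding genes, so that medians under these 2 fits have different reference points. The log2 difference of the ratio was 0.0841 between genotypes and 0.63 by age with no length scaling, and 0.64 by age from mean log2 levels.

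Leaving out 1 library gave subunit medians of 0.88 to 1.02 at day 15 and 0.64 to 0.80 by age, and assembly factor medians of 0.69 to 0.80 and 0.27 to 0.30. Where week 70 kept 1 library, it was assumed to vary like the others. The log2 difference of the ratio ranged from 0.13 to 0.20 between genotypes and from 0.42 to 0.50 by age.

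Single members that changed sign at day 15 were Ndufa10 (-0.0714 without a filter, -0.0345 in DESeq2, -0.0192 in one fit of 8 libraries, and -0.0218 to 0.0416 with 1 library left out), Ndufs1 (-0.0403 without a filter, -0.00346 in DESeq2, -0.0128 with the offset and -0.0126 with offset and block), Ndufs7 (-0.0166 without a filter, and -0.0618 to 0.20 with 1 library left out) and Ndufa4l2 (-0.44 to 0.17 with 1 library left out). By age the offset, without and with the block, turned Ndufaf2 (1.15 and 1.08), Ndufaf4 (0.62 and 0.63), Ndufaf6 (0.42 and 0.48) and Ndufs4 (0.52 and 0.50), and without the block Ndufa4l2 (-0.0164). The offset from protein-coding genes turned Ndufaf4 (0.13) and Ndufa4l2 (-0.58), and upper-quartile scaling Ndufaf7 (-0.0729) and Ndufa4l2 (-0.075). Ndufaf6 was at 0.0584 in one fit of 8 libraries, at 0.0161 with the block, and at -0.22 to 0.14 with 1 library left out, where Ndufa4l2 ranged from -0.11 to 0.41. The causes were not tested.

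With the replicate number as a block, 30 subunits and 7 assembly factors were called at day 15, and 32 and 6 by age, with Ndufs3 at day 15 the 1 named call lost. Over all genes the block gave 11184 calls in place of 11993 at day 15 and 14876 in place of 16390 by age. At day 15 no library correlated best with its own number. Depth limits Ndufb11b, Ndufa11b and Ndufs6b, with at most 15 fetal counts each.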
